A study of Mus musculus with 81 samples.

Results

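The stromal cells of the fetal mouse pancreas are described here by whether they carried Sox9 transcripts. The cells were chosen by their own measured values of Sox9 and of 5 marker genes. A cell counted as stromal when Col3a1 reached 10 RPKM (reads scaled to transcript length and library size) while Epcam, Chga, Tyrobp and Emcn, which mark epithelium, endocrine cells, leukocytes and endothelium, each stayed under 10 RPKM, and when it was not 1 of the 4 shallow cells C3, C43, C61 and C94. Of 81 cells, 62 passed (76.5%, 95% exact Clopper-Pearson interval 65.8% to 85.2%). Sox9 reached 1 RPKM in 22 of the 62 (35.5%, 23.7% to 48.7%), called Sox9-positive, and was under 1 RPKM in the remaining 40, called Sox9-negative. Cells bear the number that the labels give them. The intervals cover the counting error of cells only, since the cells form 1 sample. The reads carry no molecular identifiers, so several can stem from 1 molecule.

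Pancreata of wild-type CD1 embryos at embryonic day 13.5 were the source of every cell. They were dissociated with trypsin, separated on a microfluidic device so that each library held 1 cell, and amplified with SMARTer chemistry, which copies whole transcripts. The 2 groups share strain, age, tissue and handling, no treatment or allele separates them, and Sox9 itself, the readout, defines them. The labels name no animals and do not say how many embryos were pooled, so the cells form 1 sample, spreads are over cells, and no p-value is given. Estimated reads per cell were 2504600 to 4930300 in the Sox9-positive cells (median 3650400) and 1643900 to 4856900 in the Sox9-negative cells (median 3466450). The median number of genes at 1 RPKM or more was 4191.5 in the Sox9-positive and 4019 in the Sox9-negative cells.

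Sox9 is a transcription factor of the Sry-related HMG-box family. In the developing pancreas it is best known from the epithelium, where it maintains the progenitor pool and later marks ducts. In mesenchyme it is known as the master regulator of cartilage, where it acts with Sox5 and Sox6 on matrix genes such as Col2a1 and Acan, and it also occurs in embryonic mesenchyme that does not form cartilage. Because the epithelium of the same dissociation carries much Sox9, a low Sox9 value in a stromal library has to be read beside the libraries it was sequenced with.

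Each library carried a pair of 8-base index sequences. The first index was shared by the cells of a plate column and the second by the cells of a plate row, so that sharing an index meant sharing a plate row or column. There were 4 Sox9-high epithelial cells, defined as cells outside the stromal set with Epcam and Sox9 each at 10 RPKM or more. Their index pairs are given first, then those of the stromal cells on which the comparison of positions turns. The first index is followed by the second, and capitals mark an index that the stromal cell had in common with a Sox9-high epithelial cell.
C43, epithelial, row H, column 1, Sox9 at 86.2 RPKM: taaggcgactaagcct
C47, epithelial, row H, column 8, Sox9 at 200.5 RPKM: cagagaggctaagcct
C82, epithelial, row F, column 12, Sox9 at 306.7 RPKM: gtagaggaactgcata
C95, epithelial, row H, column 11, Sox9 at 53.7 RPKM: aagaggcactaagcct
C71, stromal, row D, column 11, Sox9 at 11.2 RPKM: AAGAGGCAagagtaga
C46, stromal, row H, column 7, Sox9 at 4.20 RPKM: ctctctacCTAAGCCT
C60, stromal, row B, column 12, Sox9 at 1.04 RPKM: GTAGAGGActctctat
C15, stromal, row C, column 1, Sox9 at 0.949 RPKM: TAAGGCGAtatcctct
C83, stromal, row F, column 11, Sox9 listed at 0: AAGAGGCAACTGCATA
C35, stromal, row F, column 8, Sox9 listed at 0: CAGAGAGGACTGCATA
C52, stromal, row A, column 10, Sox9 at 158.2 RPKM: cgaggctgtagatcgc
C71, C46 and C60 were the Sox9-positive cells that shared an index with a Sox9-high epithelial cell. C83 and C35 shared both of their indices, each with a different such cell, and listed Sox9 at 0. C52, the stromal cell with the highest Sox9, shared neither.

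Sox9 (NM_011448, chromosome 11, 112643524 to 112649071, plus strand, mm9) spanned more than 2 orders of magnitude among the positive cells. The highest values were 158.2 RPKM in C52, 66.7 in C20, 57.8 in C39, 37.99 in C1, 32.2 in C55 and 28.3 in C63. C74 had 24.3, C28 23.9, C49 12.62 and C71 11.2 RPKM, which made 10 cells at 10 RPKM or more. C52 alone lay within the range of the epithelial cells C43, C47 and C82, while C20 and C39 lay above the lowest epithelial cell C95.

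The other 12 positive cells lay between 1 and 10 RPKM. C38 had 8.55, C75 7.82, C42 6.92, C4 5.69, C18 4.66 and C46 4.20 RPKM. C70 had 2.995, C16 2.04, C87 1.61, C30 1.43, C67 1.22 and C60 1.04 RPKM. The median of all 22 was 8.19 RPKM, and they rested on an estimated 14.8 to 1644 Sox9 reads, with a median of 142.8.

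Below the threshold, Sox9 was above 0 in 14 of the 40 negative cells and listed at 0 in 26. C15 at 0.949 RPKM and C59 at 0.755 RPKM lay just outside the threshold, as C60 and C67 lay just inside it. C15 rested on about 10.8 and C59 on about 7.90 Sox9 reads, against 19.5 in C60. After them came C88 with 0.168 and C66 with 0.165 RPKM, each on about 3 reads, and the remaining 10 cells rested on 1 read each. A single Sox9 read was worth 0.0491 to 0.0966 RPKM in the positive cells and 0.0498 to 0.147 RPKM in the negative cells, so the threshold of 1 RPKM was well above the worth of a read in every stromal cell.

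**Figure D1:**
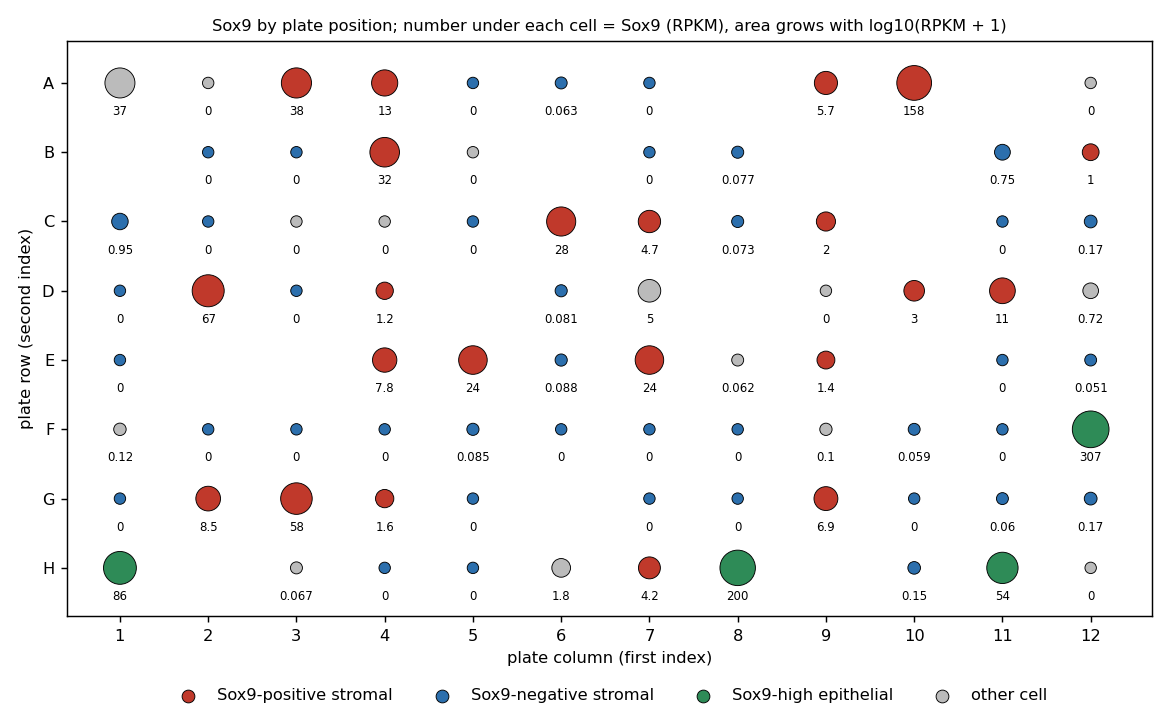
Sox9 by plate position, with rows (second index) down the page and columns (first index) across it; the number under each cell is Sox9 in RPKM and the area grows with log10(RPKM + 1). None of the 9 stromal cells of row F, which holds C82 at 306.7 RPKM, was Sox9-positive, while all 4 stromal cells of column 9 were.

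Sox9-positive cells were found mostly away from the Sox9-high epithelial cells. Of the 29 stromal cells that shared either index with one of these, 3 were Sox9-positive (10.3%, 2.19% to 27.4%). Of the 33 that shared neither, 19 were Sox9-positive (57.6%, 39.2% to 74.5%). Put the other way, 3 of the 22 Sox9-positive cells (13.6%) and 26 of the 40 Sox9-negative cells (65%) shared an index with a Sox9-high epithelial cell. Depth and the stromal collagen were close in both sets of cells: the median of estimated reads was 3476600 in cells sharing an index and 3606700 in cells sharing neither, and the median of Col3a1 was 113.6 and 138.2 RPKM.

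Each index on its own gave the same order. Sharing the second index, 1 of 13 cells was Sox9-positive, and sharing the first, 2 of 18. Among cells at 10 RPKM or more the counts were 1 of 29 sharing an index, which was C71, and 9 of 33 sharing neither. The columns varied. The 4 positive cells of column 9, which holds no Sox9-high epithelial cell, were C42, C4, C16 and C30 at 1.43 to 6.92 RPKM, and 5 of 7 stromal cells in column 4 were positive, C55 being the highest. Columns 2 and 3 had 2 of 5 each, column 10 had 2 of 5, column 7 had 3 of 7, column 5 had 1 of 6 and column 6 had 1 of 5. Of the columns with a Sox9-high epithelial cell, columns 1 and 8 had 0 of 4 each, column 11 had 1 of 6 and column 12 had 1 of 4, so columns 5 and 6 were no higher than these last.

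The traces of Sox9 below 1 RPKM lay the other way. Values above 0 and under 1 RPKM were found in 11 of the 29 cells that shared an index (37.9%, 20.7% to 57.7%) and in 3 of the 33 that did not (9.09%, 1.92% to 24.3%). Part of this gap is set by the definition, since the Sox9-positive cells, 3 of the 29 and 19 of the 33, cannot hold such a value. Among the Sox9-negative cells alone the counts were 11 of 26 sharing an index and 3 of 14 sharing neither. The 3 sharing neither, C73, C69 and C51, all stood in column 6, which holds the Sox9-positive stromal cell C63 at 28.3 RPKM. C51 also shared row A with C52 at 158.2 RPKM, and C69 shared row D with C20 at 66.7 RPKM. All 4 stromal cells of column 12, which they share with C82, had Sox9 above 0, at a median of 0.166 RPKM.

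**Figure D2:**
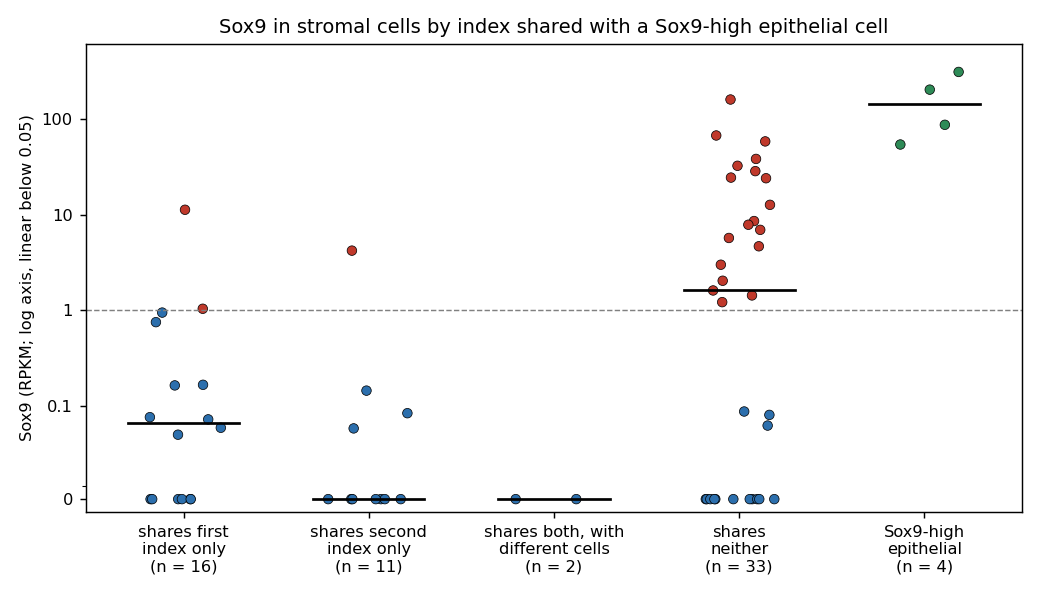
Sox9 in RPKM (log axis, linear below 0.05) in each stromal cell, by the index it shared with a Sox9-high epithelial cell; red points are Sox9-positive, blue Sox9-negative and green epithelial cells, bars are medians and the dashed line is 1 RPKM. The cells sharing neither index hold 19 of the 22 Sox9-positive cells.

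The size of values that follow a shared index was read from Gcg, the glucagon gene, which the endocrine cells C24 and C56 carried at 48647 and 22613 RPKM. Among stromal cells that shared an index with either, the highest Gcg value was 32.9 RPKM in C40, which is 0.0676% of the value in C24. At that percent, the summed Sox9 of the epithelial cells sharing an index with a stromal cell would give at most 0.343 RPKM, below the threshold. Of the 14 cells with Sox9 above 0 that shared an index, 8 were at or under the level this percent gives for them and 6 were above it. C71 was at 20.9%, C59 at 1.41%, C46 at 1.23%, C15 at 1.10%, C60 at 0.339% and C89 at 0.111% of the summed Sox9 of its index-sharing epithelial cells. C89 held 1 Sox9 read.

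The same was computed against all cells in the same row or column, whatever their type. All 22 Sox9-positive cells were above the level at the Gcg percent, which was between 0.00671 and 0.254 RPKM for them. The lowest was C60, at 0.305% of the summed Sox9 of the cells with which it shared an index, followed by C67 at 0.865% and C46 at 1.12%. Of the 14 cells with traces, 4 were above the level, C15, C59, C73 and C69. C73 and C69 held 1 read each, so they cannot be placed relative to a level of less than 1 read.

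Other genes of the Sox9-high epithelial cells were mostly listed at 0 in stromal cells with a shared index. The genes taken were at 200 RPKM or more in the epithelial cell and under 1 RPKM in every stromal cell sharing neither index with it, so the rate in those cells was limited by the choice and is not compared. Of 173 pairs of such a gene and an index-sharing stromal cell, 23 were above 0 and 2 at 1 RPKM or more. Not all pairs are distinct. Spp1 was taken for C43, C47 and C95, which share row H, so its pairs along that row are counted for each of them. These include its value of 0.146 RPKM in C93. The highest level in an index-sharing stromal cell was 0.0290% to 0.137% of the source for C47, C82 and C95. For the shallow cell C43 it was 0.0695% along the row and 3.53% along the column, the last from Krt7 at 10.3 RPKM in C37. Krt8 in C21 was next along that column, at 2.23%. C15 shares this first index with C43, and its Sox9 was 1.10% of the value in C43. As C43 is shallow, the same pairs are larger shares of its reads: 7.33% for Sox9 in C15, 28.8% for Krt7 in C37 and 21.3% for Krt8 in C21. By reads, the highest Gcg share was 0.0952%. Whether reads of the epithelial libraries supplied the traces was not tested, and 1 read gives no way to tell them from transcripts of the cell itself.

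The labels name no cell type, so the stromal call was looked at on small sets of markers. The rule itself fixed Col3a1, Epcam, Chga, Tyrobp and Emcn, which are among these markers, so their levels are no evidence for it. All 9 stromal markers reached 1 RPKM in some positive cell, and their sum per cell was 104.6 to 1118 RPKM in Sox9-positive cells (median 360.8) and 208.4 to 1104 RPKM in Sox9-negative cells (median 438.3). In the Sox9-high epithelial cells 7 of the 9 reached 1 RPKM, with sums of 51.3 to 300.8 RPKM (median 82.8). None of the 10 epithelial markers reached 1 RPKM in any Sox9-positive cell, where their sum was at most 0.941 RPKM and Krt8, Krt19, Cldn3 and Esrp1 were at 0. In the Sox9-negative cells 4 of the 10 reached 1 RPKM, in 6 cells, with sums of up to 346.8 RPKM, against 338.7 to 1774 RPKM in the Sox9-high epithelial cells. In the longer list of 30 epithelial genes some did appear in single Sox9-positive cells. Wfdc2 reached 1 RPKM in 2 of 22 Sox9-positive cells, up to 108.4 RPKM, and in 3 of 40 Sox9-negative cells, up to 122.9 RPKM. Dsp, of desmosomes, did so in 1 of 22, at 31.5 RPKM, and in 0 of 40. Cdh3, a cadherin, did so in 2 of 22 and 4 of 40, and Prss8, a membrane protease, in 2 of 22 and 2 of 40, at no more than 5.02 and 3.77 RPKM in Sox9-positive cells.

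Markers of other lineages were present in part. The neural crest genes Sox10 and Foxd3 were at 0 in all stromal cells, while Fabp7 reached 1 RPKM in 8 of 22 Sox9-positive and 14 of 40 Sox9-negative cells. Ednrb, the endothelin receptor of neural crest cells, which other cells also carry, did so in 16 of 22 and 25 of 40 cells, up to 99.6 RPKM in Sox9-positive cells, and Elavl4, a neuronal gene, in 4 of 22 and 5 of 40. Of 5 mesothelial markers (Msln, Upk3b, Upk1b, Krt19 and Lrrn4) 0 reached 1 RPKM in Sox9-positive cells and 3 did in Sox9-negative cells, in 3 cells. Wt1, which mesothelium and mesenchyme both carry, did so in 14 of 22 Sox9-positive and 30 of 40 Sox9-negative cells, and Aldh1a2 in 3 of 22 and 5 of 40.

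Of 6 cartilage markers, Acan, Col9a1 and Matn1 were at 0 in all Sox9-positive cells, and Col2a1 was at most 0.057 RPKM. The other 2, Sox5 and Sox6, reached 1 RPKM in Sox9-positive cells, against 4 of the 6 markers in Sox9-negative cells, and 12 of 22 Sox9-positive and 29 of 40 Sox9-negative cells held a marker at that level. Further matrix genes of cartilage, which other stroma also makes, were present too: Col9a2 in 11 of 22 Sox9-positive and 21 of 40 Sox9-negative cells, and Col11a1 in 7 of 22 and 11 of 40. Gcg reached 1 RPKM in 6 of 22 Sox9-positive and 14 of 40 Sox9-negative cells. All of these cells shared an index with the endocrine cell C24 or C56. C12, with the first index of C24 and the second of C56, is counted under both below. Of stromal cells sharing the first index, 7 of 7 with C24 and 6 of 6 with C56 reached 1 RPKM. With the second index it was 3 of 7 and 5 of 7. Whether the stromal cells carried Gcg transcripts of their own was not tested. Of the 6 leukocyte markers 1 reached 1 RPKM in Sox9-positive and 3 did in Sox9-negative cells, and of the 6 endothelial markers 2 did in each.

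Across all other genes the groups were close. The mean of log2(RPKM + 1) was compared for the 9897 genes that reached 1 RPKM in at least 5 stromal cells, Sox9-positive minus Sox9-negative, and a difference of at least 1 was counted. A total of 400 genes were higher in the positive cells (4.04%) and 177 lower (1.79%), with a median difference of 0.04. The groups overlapped for every gene, and no gene was detected in all Sox9-positive and no Sox9-negative cells. Differences on this scale understate the change of low genes.

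Most differences did not recur in a second set of cells. Cells numbered 1 to 48 and 49 to 96 carried different first indices and gave separate comparisons, of 11 positive against 18 negative and of 11 positive against 22 negative cells. Cells 1 to 48 gave 955 higher (9.65%) and 683 lower genes (6.9%), and cells 49 to 96 gave 893 (9.02%) and 559 (5.65%). The differences in the 2 sets had a Spearman coefficient of 0.03 and a Pearson coefficient of 0.03 over the 9897 genes, which share cells and depth and are not independent, and 51.2% of the genes had the same sign. In both sets 132 genes were higher and 52 lower (1.86% of all), while 166 (1.68%) were past 1 in opposite directions. A gene named below as higher or lower is thus a description of these 62 cells.

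**Figure D3:**
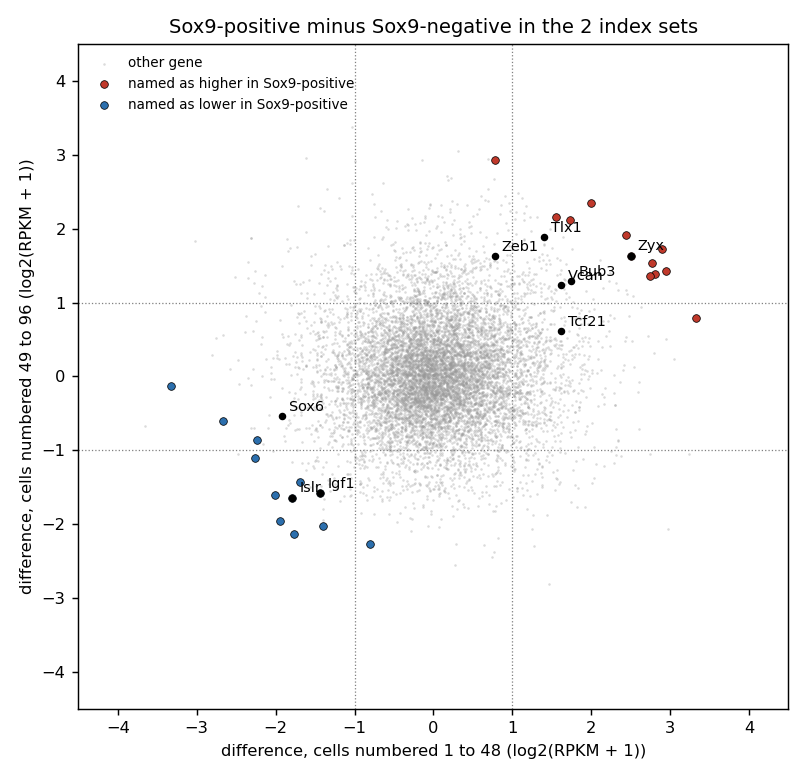
Differences in mean log2(RPKM + 1), Sox9-positive minus Sox9-negative, in cells numbered 1 to 48 (horizontal) and 49 to 96 (vertical), each point a gene; dotted lines mark 1 and -1. The cloud is round (Spearman 0.03), and the coloured genes sit at opposite corners because the rule that named them asked for the same sign in both sets.

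Among the 12 genes of largest positive difference with the same sign in both sets, Zyx (chromosome 6, 42299827 to 42308394, mm9) stood apart in its detection. Zyx encodes zyxin, a protein of focal adhesions and stress fibres. It was detected in 22 of 22 Sox9-positive cells, at 9.85 to 422.5 RPKM with a median of 74.8, and in 27 of 40 Sox9-negative cells, at 0 to 409.4 RPKM with a median of 37.95. The mean log2(RPKM + 1) was 6.39 ± 1.45 in Sox9-positive and 4.32 ± 3.28 in Sox9-negative cells (SD over cells, n = 22 and 40), a difference of 2.08. The highest values of the groups were close, and what differed was the lower end, where the positive cells had no cell without Zyx.

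Slc40a1 (chromosome 1, 45964915 to 45982439), which encodes the iron exporter ferroportin, was detected in 18 of 22 Sox9-positive cells, with a median of 98.7 RPKM and a range of 0.0782 to 394.6, and in 25 of 40 Sox9-negative cells, with a median of 7.61 RPKM and a range of 0 to 440.8. The difference was 2.06 in all cells and 1.17 with the positive cells at 10 RPKM or more. Apip, an enzyme of the methionine salvage pathway, had the largest difference of the named genes, 2.27, with medians of 66.2 RPKM in Sox9-positive and 0.982 RPKM in Sox9-negative cells. Exosc8, a subunit of the RNA exosome, was detected in 21 of 22 and 32 of 40 cells, with a difference of 1.87.

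The other 8 named higher genes had differences of 1.87 to 2.19. Srp14, of the signal recognition particle, differed by 2.11, Seh1l, of the nuclear pore, which overlaps 4930549G23Rik, by 2.19, and Bet1, a fusion protein of vesicles between endoplasmic reticulum and Golgi, by 1.96. Cuta differed by 2.10. Sdf2, of the endoplasmic reticulum, differed by 1.87, but by 0.78 in cells 1 to 48 and 2.93 in cells 49 to 96. Tspan7, a tetraspanin, differed by 2.06, but by 3.32 in cells 1 to 48 and 0.80 in cells 49 to 96. Gng11, a G protein gamma subunit, differed by 2.02 and was detected in 12 of 22 Sox9-positive and 7 of 40 Sox9-negative cells. Mrpl27, of the mitochondrial ribosome, differed by 2.17, and 32.4% of the 50-base windows of its transcript occur in transcripts of other genes, so its reads may be shared.

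Genes lower in the Sox9-positive cells included a growth factor and a stromal surface protein. Igf1 (chromosome 10, 87323856 to 87399792), insulin-like growth factor 1, was detected in 13 of 22 Sox9-positive cells, with a median of 2.36 RPKM and a range of 0.0924 to 300.8, and in 29 of 40 Sox9-negative cells, with a median of 26.4 RPKM and a range of 0 to 622.9. The mean log2(RPKM + 1) was 2.78 ± 2.81 in Sox9-positive and 4.29 ± 3.12 in Sox9-negative cells (SD over cells). Its difference of -1.51 was -1.43 in cells 1 to 48, -1.58 in cells 49 to 96 and -2.28 among cells sharing neither index.

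Islr (chromosome 9, 58004071 to 58006361), an immunoglobulin-family protein of mesenchymal cells also called meflin, was detected in 10 of 22 Sox9-positive cells, with a median of 0.917 RPKM and a range of 0 to 47.1, and in 27 of 40 Sox9-negative cells, with a median of 7.40 RPKM and a range of 0 to 317.8. Its difference was -1.70 in all cells, -1.79 in cells 1 to 48, -1.64 in cells 49 to 96 and -1.49 among cells sharing neither index. No Sox9-positive cell came near the highest Sox9-negative ones.

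The other 10 named lower genes had differences of -1.95 to -1.51. Diablo, which encodes a mitochondrial protein that promotes apoptosis, differed by -1.95, but 31.97% of its windows occur in other transcripts and it overlaps B3gnt4. Cdk10, a cyclin-dependent kinase, differed by -1.90 in all cells and by -0.56 among cells sharing neither index. Mrpl14, of the mitochondrial ribosome, differed by -1.73, the import receptor Ipo13 by -1.57 and Capn7, a calpain protease, by -1.54. Abcf2 differed by -1.77 and the zinc finger gene Zfp868 by -1.55, but by -0.43 and -0.48 with positive cells at 10 RPKM or more, and Zfp868 by -0.86 in cells 49 to 96. Ccdc23 differed by -1.66, with -3.33 in cells 1 to 48 and -0.13 in cells 49 to 96. Wdr82 and Dpcd, at -1.57 and -1.51, overlap Mirlet7g and Fbxw4, whose reads cannot be told from theirs. Wdr82 differed by -0.80 in cells 1 to 48, and Dpcd by -0.60 in cells 49 to 96.

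**Figure D4:**
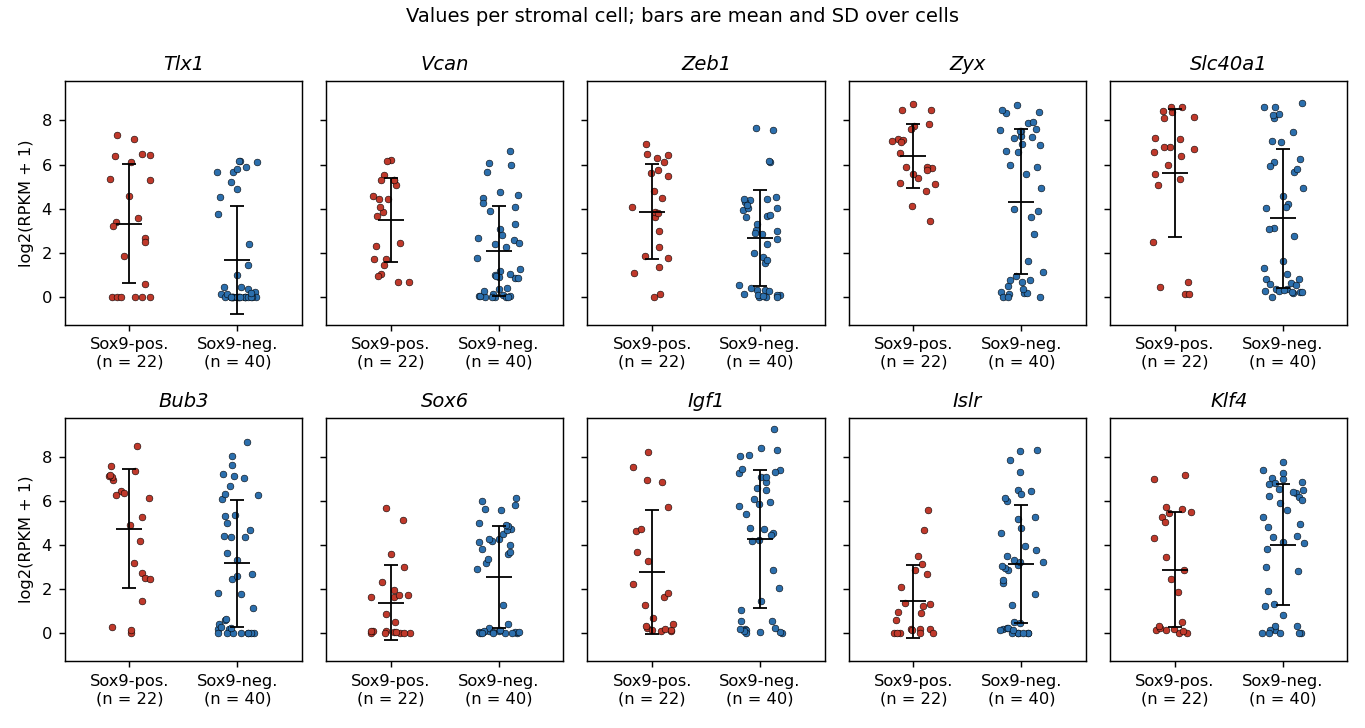
Log2(RPKM + 1) of 10 genes in each Sox9-positive (red, n = 22) and Sox9-negative (blue, n = 40) stromal cell, with mean and SD over cells. The groups overlap for every gene, and the means differ because more or fewer cells sit near 0, as for Tlx1, detected in 15 of 22 Sox9-positive and 13 of 40 Sox9-negative cells.

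The counts of list members past 1 that follow stand beside 4.04% higher and 1.79% lower over all 9897 genes, and with lists this small a count near those shares is no result about the list. Of 27 chondrogenic genes 8 were measured, 1 higher and 1 lower, with a median of 0.05 against 0.04 over all genes. Sox6, the partner in cartilage, was lower: it was detected in 10 of 22 Sox9-positive cells, with a median of 0.651 RPKM and a highest value of 50.2, and in 23 of 40 Sox9-negative cells, with a median of 8.90 RPKM and a highest value of 69.1. Its difference was -1.17 in all cells, -1.92 in cells 1 to 48, -0.54 in cells 49 to 96 and -2.49 among cells sharing neither index. Sox5, the other partner, was detected in 5 of 22 and 9 of 40 cells, with a difference of 0.18. Pth1r, the receptor of parathyroid hormone and its related peptide, was higher by 1.13, by 0.88 without C52 and by 0.96 in cells 1 to 48.

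Of the 18 other Sox genes 7 were measured, 0 higher and 1 lower, which was Sox6. Sox11, a Sox gene of many embryonic progenitors, was detected in 21 of 22 Sox9-positive and 39 of 40 Sox9-negative cells, with medians of 41.6 and 27.1 RPKM and a difference of 0.35. Sox13 was detected in 7 of 22 and 4 of 40 cells, with a difference of 0.81. Of the 19 pancreatic progenitor factors 3 were measured, none past 1. Hes1, a target of Notch, was detected in 22 of 22 Sox9-positive and 38 of 40 Sox9-negative cells, with a difference of 0.38. Pdx1, Ptf1a and Foxa1, which accompany Sox9 in the pancreatic epithelium, did not pass the filter. Of the 30 epithelial genes 2 were measured, Cdh3 and Wfdc2, and of the 22 endocrine genes 4 were, none past 1. The same held for the 4 mesothelial, 4 neural crest and glial, 1 leukocyte and 1 endothelial genes measured, and no erythroid gene passed the filter.

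The transcription factors of visceral mesenchyme held 2 genes past 1 among 22 measured, both higher, with a median of 0.07 (4.04% of all genes were higher). Tlx1 (chromosome 19, 45225205 to 45231433, mm9), a homeobox gene required for the spleen, had the largest difference of the list, 1.65. It was detected in 15 of 22 Sox9-positive cells, with a median of 8.89 RPKM and a highest value of 161.1 in C75, and in 13 of 40 Sox9-negative cells, with a median of 0.104 RPKM and a highest value of 70.7. Among the Sox9-positive cells, C20 had 141.7, C38 87.97, C28 86.6, C4 82.6 and C87 67.4 RPKM, while C52, C63, C46, C18, C16 and C30 listed it at 0. The cell with the highest Sox9, C52, was thus among those without Tlx1 reads.

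The difference in Tlx1 was 1.40 in cells 1 to 48, 1.89 in cells 49 to 96, 1.41 among cells sharing neither index and 1.78 with positive cells at 10 RPKM or more. Tcf21, a bHLH factor of visceral mesenchyme, was detected in 18 of 22 and 30 of 40 cells and differed by 1.07, but by 0.62 in cells 49 to 96 and 0.22 among cells sharing neither index. Barx1, a homeobox gene of stomach mesenchyme, was detected in 7 of 22 Sox9-positive and 22 of 40 Sox9-negative cells. Its difference of -0.81 came from cells 1 to 48, at -1.67, and was -0.03 in cells 49 to 96.

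Of the 8 measured EMT factors 1 was higher, where 4.04% of all genes were: Zeb1, a repressor of epithelial genes, which overlaps Gm10125. Zeb1 was detected in 20 of 22 Sox9-positive cells, with a median of 14.5 RPKM, and in 27 of 40 Sox9-negative cells, with a median of 6.27 RPKM. The difference was 1.22 in all cells, 0.78 in cells 1 to 48, 1.63 in cells 49 to 96 and 1.54 among cells sharing neither index. Snai2, another such repressor, had medians of 84.5 and 62.6 RPKM and a difference of 0.37.

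Stromal matrix genes had a median difference of -0.22 over 31 measured, with 1 higher and 0 lower by 1. Col1a1 differed by 0.07, and Col3a1, a gene of the rule, by 0.17. Vcan (chromosome 13, 89794915 to 89882117), the large proteoglycan versican, was the 1 higher gene. It was detected in 19 of 22 Sox9-positive cells, with a median of 14.6 RPKM and a range of 0.565 to 73.8, and in 23 of 40 Sox9-negative cells, with a median of 1.33 RPKM and a range of 0 to 97.0. Its difference was 1.41 in all cells, 1.62 in cells 1 to 48, 1.24 in cells 49 to 96 and 0.89 among cells sharing neither index.

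Toward the lower side, Col6a2, a chain of microfibrillar collagen, differed by -0.96, the adhesion protein gene Tgfbi by -0.85 and Dcn, the small proteoglycan decorin, by -0.78. In the same order, they differed by -0.35, -0.17 and -0.41 in cells 1 to 48. In cells 49 to 96 the values were -1.49, -1.48 and -1.18. Dcn was detected in 2 of 22 Sox9-positive and 11 of 40 Sox9-negative cells. Among 13 measured basement membrane genes 2 were higher, the neighbouring collagen IV genes Col4a1 at 1.02 and Col4a2 at 1.03, and 0 lower, with a median of -0.06, beside 4.04% and 1.79% of all genes. Col4a1 was detected in 11 of 22 and 23 of 40 cells, so its difference lay in the level of positive cells and not in their number. Col4a1 differed by 0.81 in cells 1 to 48, 0.73 among cells sharing neither index and 0.59 with positive cells at 10 RPKM or more. Col4a2 differed by 0.64 in cells 49 to 96, 0.95 among cells sharing neither index, 0.66 with positive cells at 10 RPKM or more and 0.94 without C20.

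Signalling pathways were counted in the same way, beside 4.04% higher and 1.79% lower over all genes. Of 25 measured TGF-beta and BMP genes 1 was higher, the signal transducer Smad2 at 1.01 (0.97 without C20, 0.42 in cells 49 to 96), and the median was 0.21. Of 17 FGF genes 1 was higher, Dusp6, a phosphatase that responds to FGF signalling, at 1.07. Dusp6 had medians of 37.2 RPKM in Sox9-positive and 19.1 RPKM in Sox9-negative cells, but its difference was 0.24 in cells 49 to 96, 0.39 with positive cells at 10 RPKM or more and -0.084 among cells sharing neither index. Fgf10, the stromal ligand that sustains Sox9-positive epithelial progenitors, was detected in 7 of 22 Sox9-positive and 3 of 40 Sox9-negative cells, with a difference of 0.58. The Fgf10 difference was 0.006 in cells 1 to 48 and 1.08 in cells 49 to 96. Its highest value was 26.96 RPKM in Sox9-positive and 92.3 RPKM in Sox9-negative cells. Of 9 Hedgehog, 22 Wnt and 10 Notch genes none was past 1, with medians of -0.20, -0.04 and -0.07. The largest among the Wnt genes were the receptor-removing ligase Znrf3 at 0.92 and the secreted Sfrp2 at 0.90.

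Of 11 measured Hippo pathway genes 2 were higher. The median was -0.24 in all cells, but 0.29 in cells 1 to 48, 0.09 in cells 49 to 96 and 0.26 among cells sharing neither index, so its sign is not settled. Tead2, a DNA-binding partner of Yap1, had medians of 59.4 RPKM in Sox9-positive and 19.4 RPKM in Sox9-negative cells and differed by 1.38, and by 0.95 among cells sharing neither index. Amotl1, an angiomotin that binds Yap1, differed by 1.21, and by 0.77 in cells 1 to 48. Yap1 itself differed by -0.97, with 0.29 in cells 1 to 48 and -2.26 in cells 49 to 96.

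Proliferation genes were read beside the same shares of all genes. Mki67 was detected in 10 of 22 Sox9-positive and 23 of 40 Sox9-negative cells. Of 25 S phase genes 1 was higher, the helicase subunit Mcm6 at 1.30 (0.80 in cells 49 to 96), with a median of 0.06, and of 26 genes of G2 and M phase 2 were, the checkpoint gene Bub3 at 1.57 and Cdk1 at 1.02, with a median of 0.19. Cdk1 differed by 0.27 among cells sharing neither index, and by 0.94 without C20 or without C52. None of the 13 smooth muscle and pericyte genes and none of the 30 ribosomal protein genes was past 1.

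Genes that answer to dissociation and stress had members past 1 in both directions, as had all genes (4.04% higher and 1.79% lower). Of 21 immediate early genes 1 was higher, Egr2 at 1.21, which was 2.41 in cells 1 to 48 and 0.08 in cells 49 to 96, and 1 was lower, Klf4 at -1.12, which was -0.17 among cells sharing neither index and -0.99 without C52 or without C20. Of 16 chaperone and stress genes 2 were higher and 1 lower, with a median of 0.28. Hsph1, a chaperone, differed by 1.45 (0.75 in cells 49 to 96), Dnajb9, of the endoplasmic reticulum, by 1.198 (0.90 among cells sharing neither index), and Ddit3, a stress factor that overlaps Mars, by -1.05 (-0.97 in cells 1 to 48).

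**Figure D5:**
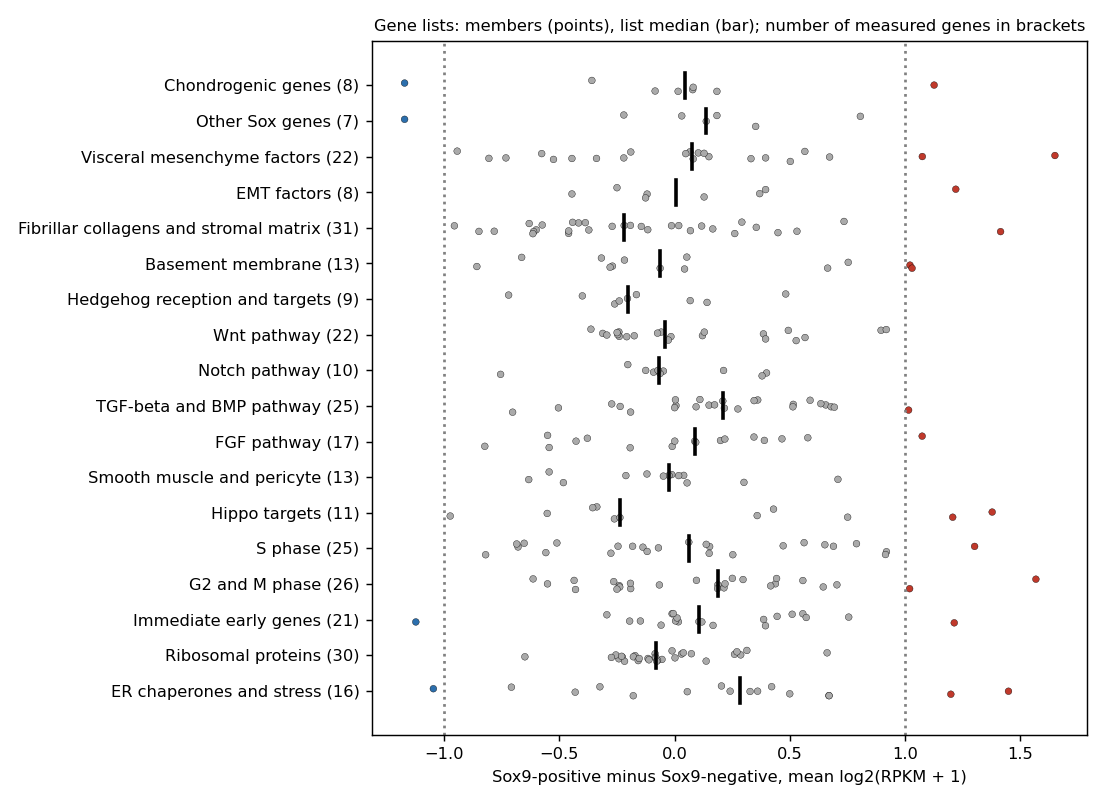
Differences in mean log2(RPKM + 1), Sox9-positive minus Sox9-negative, for the members (points) of each gene list with at least 5 measured genes, with the list median as a bar and the number of measured genes in brackets; red points are at 1 or more and blue at -1 or less. All list medians lie between -0.24 and 0.28, beside 0.04 over all genes; the lowest, of the Hippo list, is above 0 in each of the 2 sets of cells.

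Restricting both groups to cells that shared neither index left 19 Sox9-positive and 14 Sox9-negative cells. It gave 730 higher (7.38%) and 544 lower genes (5.5%), of which 263 were among the 400 higher and 107 among the 177 lower genes of all cells. Both groups are parts of those in the comparison of all cells, so this overlap is partly fixed and is no recurrence. Taking only the 10 positive cells at 10 RPKM or more against the 40 negative cells gave 773 higher (7.81%) and 495 lower genes (5.0%). That comparison shares its negative cells with the one of all cells, and its positive cells are a part of those there. Tlx1, Zyx, Vcan, Zeb1 and Bub3 were past 1 in it, and so were Igf1, Islr and Sox6 on the lower side.

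Within the 22 Sox9-positive cells, the genes whose level followed Sox9 most closely were listed by Spearman's coefficient, over 3390 genes detected in at least 50% of them. These were Hnrnpa3 at 0.69, Nasp at 0.68, Sec31a at 0.64, and B4galt1, Zfp423 and Ccdc56 at 0.61 each. Hnrnpa3 binds RNA and overlaps Gm6793, and 28.25% of its 50-base windows occur in transcripts of other genes, so its reads may be shared. Nasp is a histone chaperone, Sec31a a coat protein of vesicles that leave the endoplasmic reticulum, B4galt1 a galactosyltransferase and Zfp423 a zinc finger factor of mesenchymal progenitors. Of the 6, only Zfp423 also differed between the groups by 1 or more, at 1.06, with 18 of 22 Sox9-positive and 26 of 40 Sox9-negative cells. Its difference was 1.97 with the positive cells at 10 RPKM or more, but it was chosen for following Sox9 within these same cells. A rise there is set by that choice, and the other genes listed rose too, as Hnrnpa3 from -0.003 to 1.27. Zfp423 differed by 0.74 in cells 49 to 96, 0.89 among cells sharing neither index, 0.98 without C20 and 0.90 without C52. These are the highest of many coefficients over 22 cells of 1 sample and are a description.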

How the data were processed

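The authors deposited 1 table of values per transcript and cell for 81 cells. The table does not name its unit. The deposited values were read as RPKM, scaled by the authors to length and library size, since multiplying them by transcript length gives near-whole numbers of reads (a median of 81.9% of low values per cell, at a tolerance of 0.15). Read estimates come from these steps, with lengths from GENCODE vM21. CASAVA 1.8.2 and build mm9 are named per the submitters' processing notes, with no role stated; which aligner and counter were used is not given in the sources used here. Coordinates are mm9. Index pairs and plate positions are per the labels and the column names, and each library was read in 2 lanes.

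A gene took its transcript row of highest mean. Means of log2(RPKM + 1), with a pseudocount of 1, were compared over 9897 genes at 1 RPKM in at least 5 stromal cells. With 1 sample no test was run. Named genes are the 12 of largest difference per direction at 1 RPKM in at least 50% of the higher group's cells with the same sign in cells numbered 1 to 48 and 49 to 96, up to 4 per list, and the 6 most like Sox9. Leaving out C20 or C52 and widening the carry-over comparison to cells of all types were chosen after values had been seen, and so were Tlx1 values printed cell by cell and other genes named by count. Members and lists were chosen with earlier results of these data known. The comparison was run on simulated data, made by shuffling the values of each gene among the stromal cells, which removes differences in depth. Known changes were put only into genes at 10 RPKM or more in at least 50% of the cells. The simulation thus does not cover sparser genes. No pair of stromal cells shared more than 0.199% identical values above 0. Python 3.11.15, numpy 2.4.6, pandas 2.3.3, scipy 1.17.1 and matplotlib 3.10.9 were used.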

Additional observations from a re-analysis of the deposited data

How the results depend on the processing

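With Sox9 above 0 as the criterion, 36 cells were positive, and 48.3% of the cells sharing an index were. At 10 RPKM or more, 10 cells were positive, 27.3% of those sharing neither index were, and 773 genes were higher and 495 lower. Without the cells sharing the second index 309 genes were lower, and without those sharing either index 730 were higher and 544 lower. A pseudocount of 0.1 gave 1308 higher and 760 lower genes, and genes detected in at least 50% of the stromal cells (3019 tested) gave 187 and 80. Cells 1 to 48 gave 955 and 683, cells 49 to 96 gave 893 and 559. Fewer cells or genes entered these, except for the changed pseudocount and for Sox9 above 0, which kept all 62 cells. The other alternatives (mean of transcripts, stricter rule for other types, shallow cells kept, scaled values, no filter, without C20, without C52) gave 380 to 450 higher and 166 to 186 lower genes. Defining the epithelial cells at 100 RPKM of Sox9, leaving out C43, or taking each index alone gave 7.69% to 12% positive among sharing and 42.9% to 51.4% among other cells. Dusp6 reversed, at -0.084 without the cells sharing either index; the cause was not tested. Of 45 named genes past 1, 31 were past it in cells 49 to 96, 33 without the cells sharing either index, 36 at 10 RPKM or more, 37 in cells 1 to 48, 39 without the cells sharing the second index, 40 without C20 and 41 without C52. Most of these genes were named for large differences in the same cells, and many also for the same sign in both sets. The counts are thus partly fixed by the choice and are no measure of how far the differences hold. No paired analysis was possible because the cell numbers are those of single cells and pair none across the groups. Depth limits the traces, which rest on 1 read in 10 of 14 cells.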
